A study of Mus musculus with 4 samples.

Results

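Retinoic acid synthesis, binding and response were followed through 7 genes, listed by symbol and found among the 20672 genes of the series: the synthesising enzymes Aldh1a1, Aldh1a2 and Aldh1a3, the carrier proteins Crabp1, Crabp2 and Rbp4, and the receptor Rarb. They were measured as single-cell RNA counts in the stroma, distal tubule, collecting duct and podocytes of mouse kidneys. The series concerns stages of maturation of the developing kidney, and it holds 4 libraries, 1 for each group. Kidneys were taken at embryonic day 15.5 (E15.5, ICR strain), embryonic day 17.5 (E17.5, C57BL/6) and postnatal day 0 (P0, ICR). The fourth library is a transplant, in which C57BL/6N kidneys of E12.5 embryos grew for 12 days in the fat of the epididymis of host mice. All 4 groups are labelled wild type. The labels do not agree on the host, named C57BL/6N in one place and a NOD immunodeficient mouse in another, and how many animals went into a library is not stated. Strain therefore goes with age between E17.5 and the other ages, and in the transplant it goes with host, site and time of growth; these cannot be told apart. E15.5 and P0 share a strain. They also share a version of the counting software in the file headers, and E17.5 and the transplant share another, so strain and software version go together.

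Retinoic acid is made from vitamin A. Retinol is carried in blood by Rbp4, oxidised to retinal inside cells, and then oxidised irreversibly to retinoic acid by the retinaldehyde dehydrogenases of the Aldh1a family, which differ in where they are expressed. In the cytosol the acid is bound by Crabp1 and Crabp2, of which Crabp2 is known to hand it to the nuclear receptors, and enzymes of the Cyp26 family degrade it. The receptors Rara, Rarb and Rarg act as partners of the Rxr proteins on DNA, and Rarb is itself a classical target, induced by retinoic acid through a response element in its own promoter. In the embryonic kidney, Aldh1a2 of the stroma is known as a source of retinoic acid that acts on branching of the ureteric bud, and Aldh1a3 is known from the ureteric epithelium.

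The 7 genes lie apart in the genome (GRCm38, GENCODE annotation). Aldh1a1 is at chr19:20492715-20643465 on the plus strand, Aldh1a2 at chr9:71215789-71296243 (plus), Aldh1a3 at chr7:66390890-66427517 (minus), Crabp1 at chr9:54764748-54773110 (plus), Crabp2 at chr3:87948666-87953376 (plus), Rbp4 at chr19:38116629-38125281 (minus) and Rarb at chr14:16430839-16819156 (minus). The span of Rarb overlaps Top2b, a DNA topoisomerase gene on the other strand. Promoters of 5 of the 7 genes were matched in a RefSeq table (GRCm38.p6; 250 bases before to 50 after an annotated start). They were searched on both strands for a direct repeat of the receptor's core hexamer, in the form AGGTCA, the closely related form AGTTCA, the form GGGTCA or the form GGTTCA, with 1, 2 or 5 bases between the copies, the arrangement that retinoic acid receptors are known to bind. Of the 5, only the promoter of Rarb held a repeat spaced by 5 bases, which 0.0974% of all 32851 promoters held, and none held a spacing of 1 (0.222% of all promoters) or 2 (0.268%). Of 34 other pathway genes read below, 27 were matched, and 1 of them, Cyp26a1, held a repeat spaced by 5 bases. The forms GGTTCA and AGTTCA are the copies in the Rarb repeat itself, so its finding there depends on the forms chosen. The stretch is printed because this receptor gene is also a textbook target, with the repeat in capitals, 53 to 37 bases before the start. It lies at chr14:16575477-16575596 on the minus strand, inside the gene's annotated span, and ends at the base before the start.
Rarb: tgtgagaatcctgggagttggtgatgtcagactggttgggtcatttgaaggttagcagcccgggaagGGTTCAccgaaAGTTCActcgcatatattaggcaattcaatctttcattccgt
The match describes letters and not binding, and counts from the 3′ ends of transcripts do not tell which start was used.

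The libraries held 4158 to 10810 barcodes and 42430540 to 99068204 UMIs, the tagged molecules that are counted, and 3463 (E15.5), 4396 (E17.5), 7568 (P0) and 6268 (transplant) cells were used. Their median UMIs were 22585 at E15.5 and between 6276.5 and 9885.5 in the other libraries. Libraries shared 19 to 60 barcodes pairwise, at most 1.05% of the cells of a library. The P0 library, labelled wild type, held 8181 UMIs of a tdTomato transgene and the others held 0, so its label is incomplete or wrong, and the comparison of the transplant with E17.5, which does not use it, is given for the main values. Cells were put into classes by fixed marker genes that include none of the 7. In the 4 classes, 7 to 9 markers of each list of 8 or 9 were at least 2-fold above the other classes in every library. The same markers formed the classes, so this count describes the gate and is not a separate check of the names. Stroma-like cells numbered 1183, 653, 898 and 838 in E15.5, E17.5, P0 and the transplant, collecting duct-like cells 135, 314, 545 and 314, podocyte-like cells 110, 252, 624 and 723, and distal tubule-like cells 23, 45, 42 and 157. The names are used hereafter without "-like". Levels are UMIs of a gene per 1000000 UMIs of the class (CPM), and their 95% intervals cover nothing beyond counting error. Variation among animals was not measured, since a group is 1 library, and no test was possible; a ratio compares 2 libraries, not 2 conditions.

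Levels of the 7 genes in the 4 classes made 28 values per comparison. A ratio was read only with at least 20 UMIs in both libraries together, which let a gene pass through the library where it was high, and was counted when it reached 2-fold with an interval that left out 1. For P0 against E15.5, 17 values had enough UMIs. Of these, 2 were higher at P0, where 7.25% of all gene and class values were, and 8 were lower, where 9.71% of all were. For the transplant against P0, 15 values had enough UMIs, 1 was higher (16.0% of all values) and 9 were lower (7.07% of all). For the transplant against E17.5, 13 had enough, 1 was higher (9.89% of all) and 7 were lower (5.97% of all). The median log2 ratio of the values with enough UMIs was -0.26, -1.27 and -1.44 in the 3 comparisons. The median over all genes was -0.11 in stroma, -0.30 in collecting duct, -0.20 in distal tubule and -0.02 in podocytes for P0 against E15.5, and 0.27, 0.47, 0.34 and 0.19 for the transplant against P0. Against E17.5 it was between 0.08 and 0.20. The 7 genes were chosen with earlier results of these data known, so the counts are a description. Ratios are given as measured. Centred on these medians, Aldh1a1 and Rarb of the collecting duct at P0 no longer reached 2-fold, and 11 in place of 9 values were lower in the transplant than at P0.

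**Figure D1:**
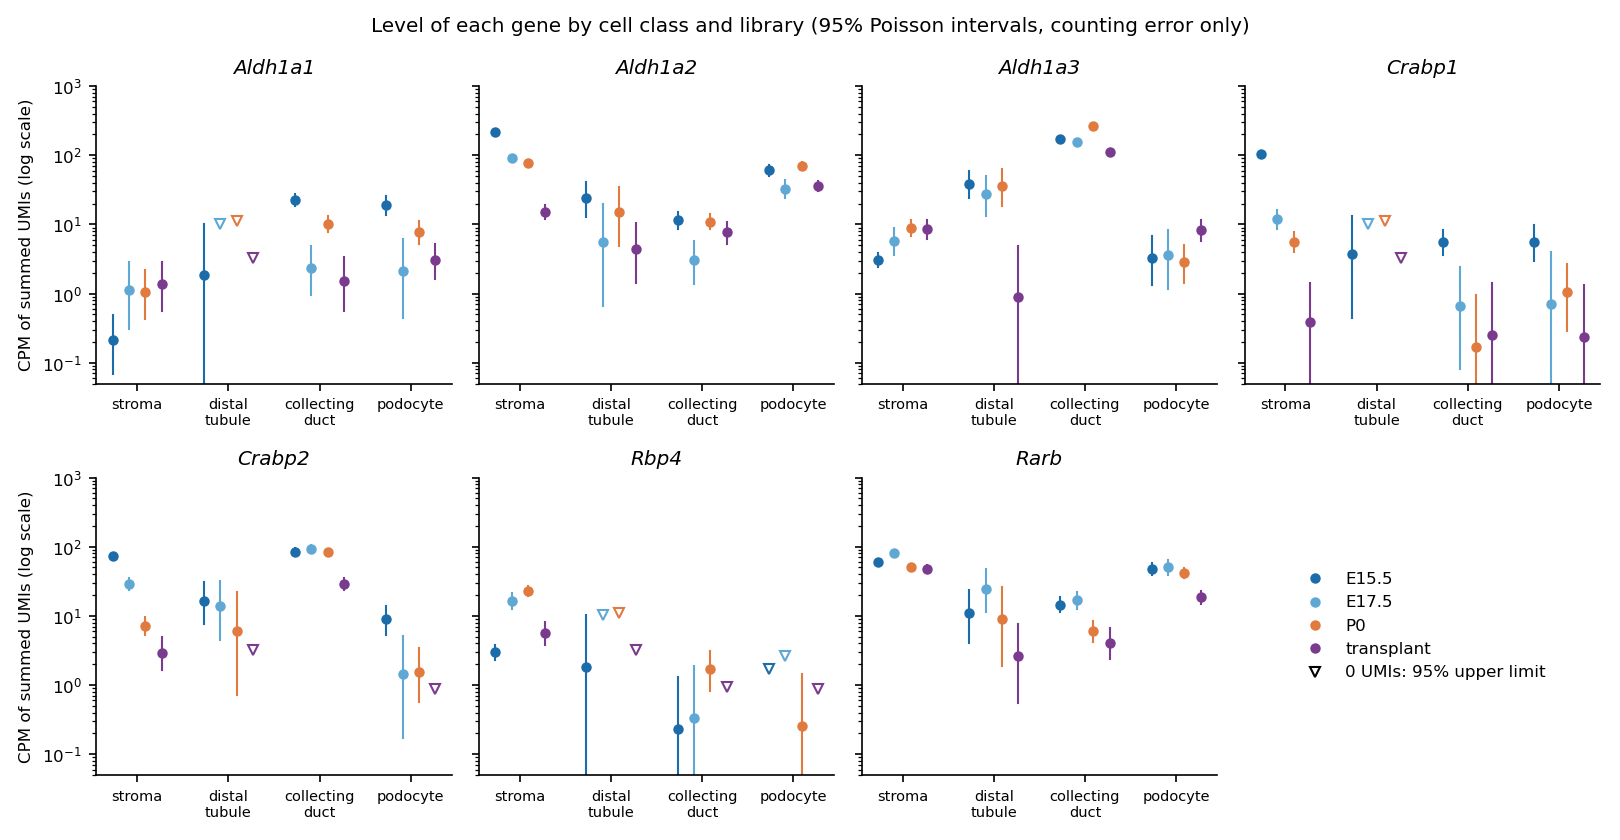
Level of each of the 7 genes (CPM of summed UMIs, log scale) in 4 cell classes, 1 point per library with its 95% Poisson interval; an open triangle is the upper limit for 0 UMIs. Stromal Aldh1a2, Crabp1 and Crabp2 are highest at E15.5 and lowest in the transplant, Aldh1a3 stands highest in the collecting duct of each library, and stromal Rarb lies between 47.6 and 79.9 CPM.

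Aldh1a2, the main retinaldehyde dehydrogenase of early embryos, was highest in the youngest stroma. In stroma, E15.5 held 218 CPM (5122 UMIs), E17.5 held 90.8, P0 held 78.0 and the transplant held 15.2 (77 UMIs). The order ran from E15.5 down to the transplant with no overlap of intervals between E15.5, P0 and the transplant. The P0 stroma was 2.80-fold below that of E15.5 (95% interval 2.55 to 3.07). The transplant was 5.15-fold below P0 (4.05 to 6.63) and 5.99-fold below E17.5 (4.66 to 7.78). Cells with a UMI showed the same order: after each cell was thinned to 3000 UMIs, 33.5%, 20%, 16.2% and 3.61% of stromal cells held Aldh1a2, against 1.75%, 1.46%, 1.43% and 0.651% of endothelial cells. Unthinned, the stromal shares were 60.7%, 27.4%, 28.8% and 6.92% at median depths of 18408, 5241, 6987.5 and 5973 UMIs, and the endothelial shares were 23.5%, 3.13%, 3.32% and 2.02% at 26234, 9455, 8320.5 and 6440.

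Aldh1a2 was not a stromal gene alone. Early nephron cells held 119, 144 and 174 CPM in situ, in order of age, and 94.1 in the transplant. In nephron progenitors it was 59.5 CPM at E15.5 and 138 at P0, 2.32-fold higher (2.14 to 2.52), a direction opposite to that of stroma in the same libraries. Proximal tubule held 87.2, 76.6, 111 and 91.7 CPM. Stroma therefore ranked first at E15.5, 1.83-fold above early nephron cells (1.74 to 1.94), and lay behind early nephron cells, nephron progenitors and proximal tubule at P0. At E17.5 the stroma and nephron progenitors were not separated (1.13-fold, 0.976 to 1.30). Of all Aldh1a2 UMIs, stroma held 56.1% at E15.5, early nephron cells held 40.1% at P0, and proximal tubule held 61.6% in the transplant, which had no cell in the nephron progenitor class.

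**Figure D2:**
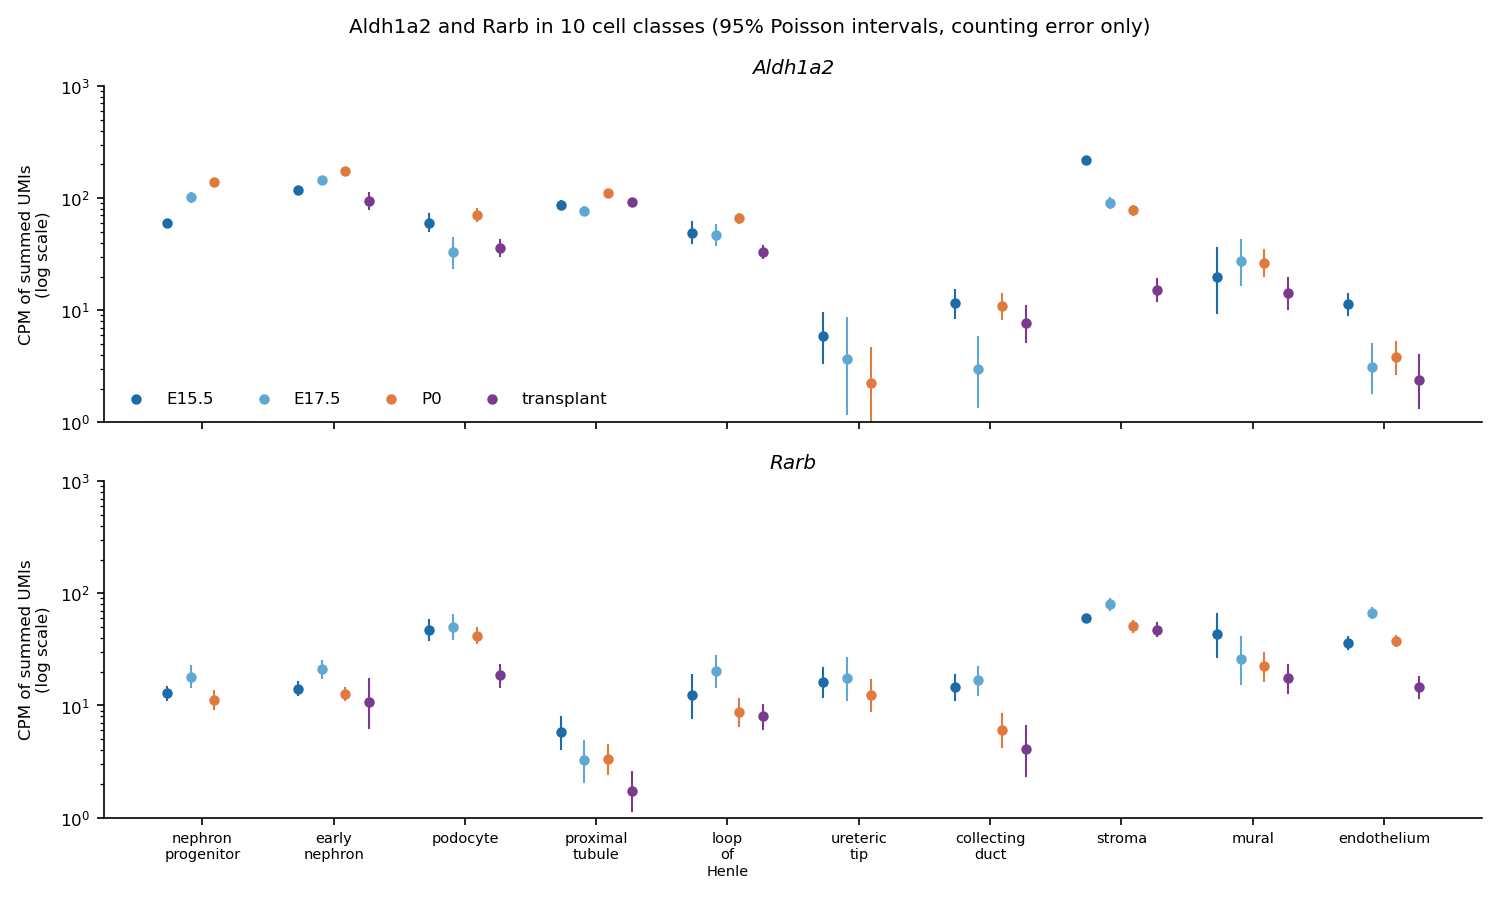
Aldh1a2 and Rarb (CPM of summed UMIs, log scale) in 10 cell classes, 1 point per library with its 95% Poisson interval. Aldh1a2 is highest in stroma at E15.5 and in early nephron cells in the other 3 libraries (in the transplant with an interval that overlaps proximal tubule), while Rarb is highest in stroma in each library.

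Podocytes, the filtering cells of the glomerulus, had Aldh1a2 levels of 60.6 CPM (E15.5), 32.8 (E17.5), 70.9 (P0) and 36.2 (transplant). The levels of E15.5 and P0 lay above those of E17.5 and the transplant, a split in which strain, age, site and software version cannot be told apart. P0 stood at 1.17 times E15.5, and the transplant at 0.511 times P0 (0.417 to 0.625), which falls short of the 2-fold threshold, and at 1.11 times E17.5. In the collecting duct Aldh1a2 was low, at 11.5, 3.02, 10.9 and 7.66 CPM, with 2.54-fold more in the transplant than at E17.5 (1.17 to 6.07; 30 and 9 UMIs). That ratio did not meet the threshold without doublet removal (log2 ratio 0.74), with classes from clusters, with a minimum of 50 UMIs or in cells at least 0.25 ahead of the next class. Endothelium held 11.4 CPM at E15.5, the height of the E15.5 collecting duct, and 2.40 CPM in the transplant.

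Aldh1a3 was a gene of the collecting duct, the water-reabsorbing end of the ureteric tree. E15.5 held 173 CPM there, E17.5 held 157, P0 held 266 and the transplant held 110. P0 was the highest and the transplant the lowest, with intervals apart from each other. P0 stood at 1.54 times E15.5 (1.41 to 1.68), and the transplant was 2.41-fold below P0 (2.17 to 2.69) and at 0.701 times E17.5 (0.614 to 0.801). The collecting duct made up 3.9% to 7.2% of cells and held 54.4%, 63.7%, 65.2% and 74.1% of all Aldh1a3 UMIs. In cells thinned to 3000 UMIs, 35.6%, 28.8%, 39.2% and 16.3% of collecting duct cells held Aldh1a3, and at most 0.326% of endothelial cells. Unthinned, these shares were 77.8%, 53.2%, 58.5% and 36.9% at median depths of 24827, 7036, 10041 and 9247 UMIs, against at most 4.70% of endothelial cells.

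Cells of the transplant's collecting duct class also carried distal tubule markers: that list of 8 summed to 8140 CPM in them, against 691, 2380 and 2070 at E15.5, E17.5 and P0, with a median of 3 and 1 markers per cell in the transplant and in the other libraries. Their part in the lower Aldh1a3 was not tested. Kept to cells whose marker share led the next class by at least 0.25, a setting added after the data were seen, the log2 ratio to P0 moved from -1.27 to -0.59 for Aldh1a3, from -2.72 to -1.08 for Aldh1a1 and from -1.55 to -1.24 for Crabp2, so that of these only Crabp2 was 2-fold lower with an interval that left out 1. With classes from clusters, which gave 10 transplant cells, the ratios of Aldh1a3 (0.89) and Aldh1a1 (3.08) to P0 reversed. The log2 ratio of Aldh1a3 to E17.5 moved from -0.51 to 0.36 in the cells at least 0.25 ahead and to 2.1 with clusters, so its direction against E17.5 depends on how the class was formed. Urothelial markers, of the lining of the urinary tract, summed to 112, 12.8, 12.9 and 1.53 CPM in the collecting duct classes of the 4 libraries.

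In stroma and podocytes Aldh1a3 was low. In stroma it was 3.07, 5.83, 8.86 and 8.46 CPM, 2.89-fold higher at P0 than at E15.5 (2.01 to 4.13) and at 0.955 times P0 in the transplant, which stood at 1.45 times E17.5 (0.843 to 2.57). In podocytes it was 3.29, 3.56, 2.86 and 8.23 CPM, so that the transplant stood above the other 3 libraries, 2.88-fold above P0 (1.43 to 6.29). The ratio of podocytes to E17.5 was 2.31, with an interval that includes 1 (0.902 to 7.56). Collecting duct markers summed to 37.6, 59.8, 62.3 and 183 CPM in podocytes of E15.5, E17.5, P0 and the transplant. In stroma they summed to 59.8, 58.6, 73.6 and 250 CPM. Their part in these Aldh1a3 values was not tested.

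Aldh1a1, the sister enzyme, was scarce and concentrated in epithelia of the ureteric tree and in podocytes. Its near-identical copy Aldh1a7 lies beside it on chromosome 19, and how reads shared by both were counted is not given in the sources used here, so its values are uncertain. Collecting duct cells held 22.8 CPM (E15.5), 2.35 (E17.5), 10.1 (P0) and 1.53 (transplant). P0 was 2.26-fold below E15.5 (1.62 to 3.17) and the transplant 6.58-fold below P0 (2.85 to 18.7; 6 UMIs). In podocytes the levels were 19.2, 2.14, 7.79 and 3.06 CPM, 2.47-fold lower at P0 than at E15.5 (1.51 to 4.10) and 2.55-fold lower in the transplant than at P0 (1.29 to 5.32), with an interval that included 1 when the class was gated on thinned cells. Both classes were therefore high in the 2 ICR libraries and low in the 2 C57BL/6 ones. These pairs also differ in the version of the counting software, and strain, age, site and software version cannot be told apart here. Stroma never passed 1.38 CPM, and endothelium never passed 0.0976.

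**Figure D3:**
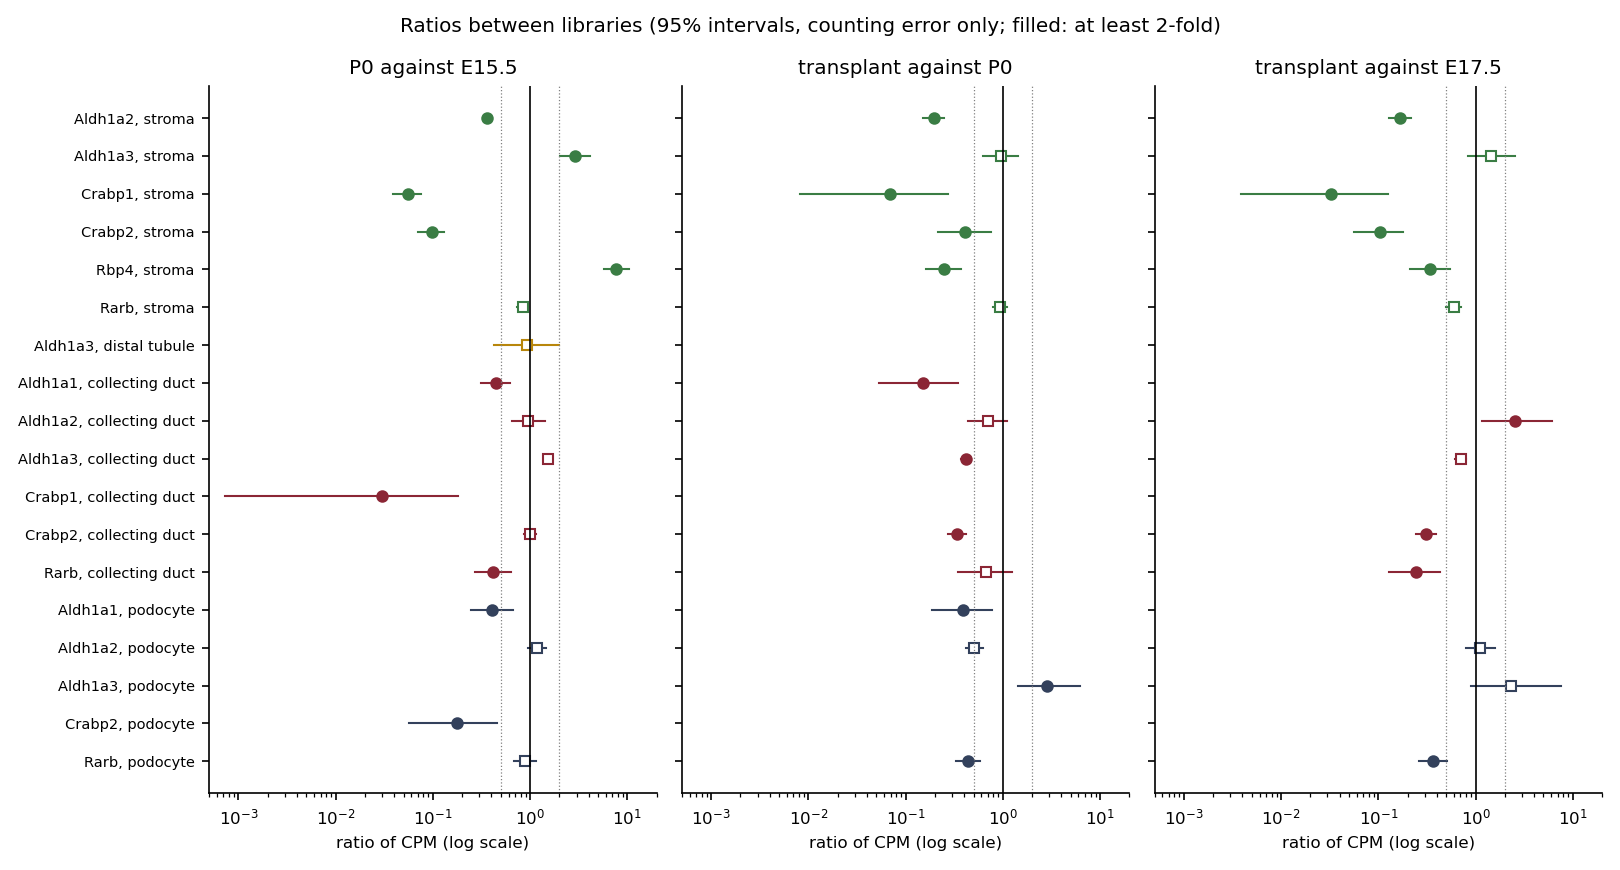
Ratio of CPM between 2 libraries (log scale) for each gene and class with at least 20 UMIs, with 95% intervals that cover counting error only; filled points reach 2-fold with an interval that leaves out 1. Stromal Crabp1, Crabp2 and Aldh1a2 lie left of 1 in all 3 comparisons, and Rbp4 lies right of 1 for P0 against E15.5 and left of it for the transplant.

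The tree of the collecting duct separated the enzymes. Ureteric tip cells, the growing ends of the tree, had no class in the transplant. In the tips Aldh1a3 was 69.6, 88.3 and 118.6 CPM in order of age, and the collecting duct was 2.49-fold (2.13 to 2.92), 1.78-fold (1.46 to 2.20) and 2.25-fold (2.0 to 2.52) higher. Aldh1a1 ran the other way, at 23.8, 11.8 and 38.7 CPM in the tips. The tips were not separated from the collecting duct at E15.5 (1.04-fold, 0.755 to 1.44) and were 5.01-fold (1.95 to 14.4) and 3.83-fold (2.79 to 5.32) above it at E17.5 and P0. Crabp2, like Aldh1a3, was lower in the tips, with 34.4, 14.0 and 9.91 CPM there against 85.0, 92.9 and 84.7 CPM in the collecting duct. In order of age its level in the tips ran down, where that of Aldh1a3 ran up.

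Collecting duct cells were also split by Aqp2, the water channel of mature principal cells and a marker used to form the class; the split was chosen after the data were seen, on thinned cells. Crabp2 was higher in cells with Aqp2 in each library, by 1.33-fold (1.05 to 1.67), 1.61-fold (1.18 to 2.25), 1.72-fold (1.37 to 2.19) and 2.19-fold (1.30 to 3.92) in E15.5, E17.5, P0 and the transplant. Aldh1a1 at P0 was 4.96-fold lower in cells with Aqp2 (2.85 to 8.88; 4.88 against 24.2 CPM), while at E15.5 the ratio was 1.10 (0.669 to 1.76). Aldh1a3 had no common direction: its ratio was 1.61 (1.37 to 1.87), 0.865 (0.704 to 1.07), 0.834 (0.749 to 0.93) and 2.13 (1.63 to 2.81).

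**Figure D4:**
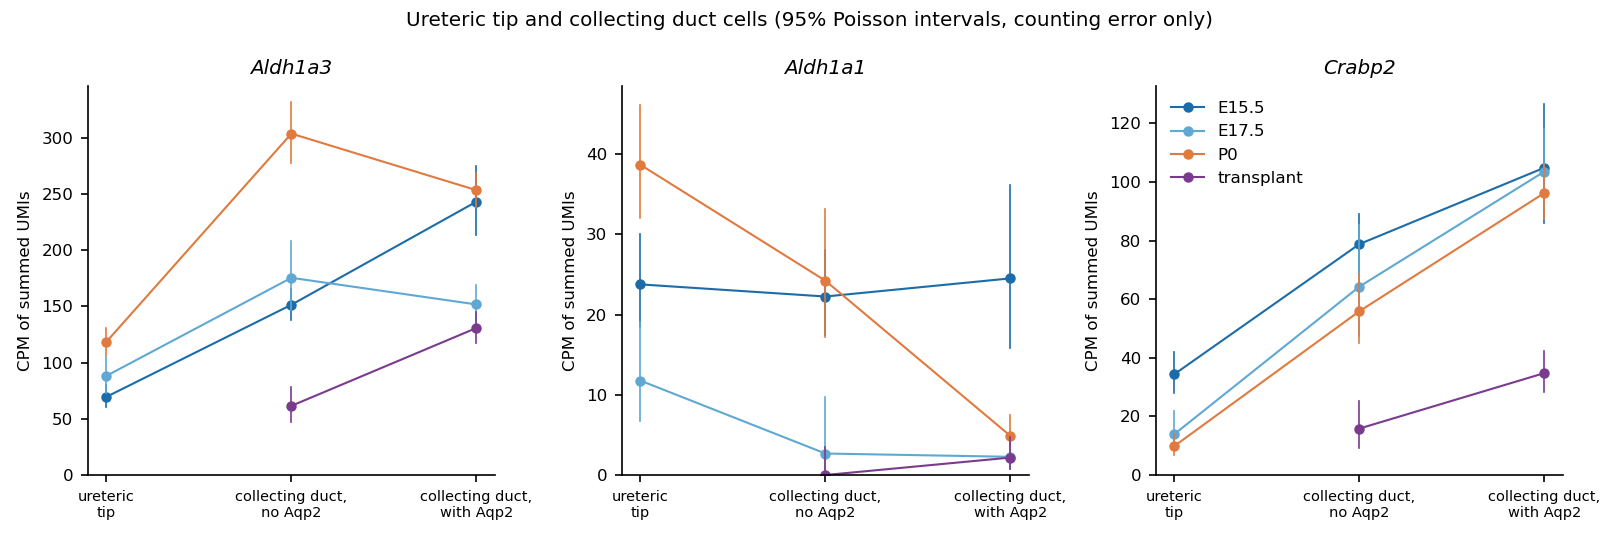
Levels (CPM of summed UMIs) in ureteric tip cells and in collecting duct cells without and with an Aqp2 UMI, 1 line per library with 95% Poisson intervals; the transplant has no ureteric tip class. Aldh1a3 and Crabp2 are lower in the tips than in the collecting duct, and Aldh1a1 at P0 descends from 38.7 CPM in the tips to 4.88 in cells with Aqp2.

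Crabp1, a cytosolic retinoic acid carrier, gave the steepest contrast in stroma. E15.5 stroma held 102.5 CPM (2405 UMIs), E17.5 stroma 11.9 (43 UMIs), P0 stroma 5.65 (37 UMIs) and transplant stroma 0.393 (2 UMIs). E15.5 stood far above the other libraries. The P0 stroma was 18.1-fold lower than that of E15.5 (13.1 to 25.8), and the transplant was 14.4-fold below P0 (3.70 to 123) and 30.3-fold below E17.5 (7.9 to 259), both on its 2 UMIs. In thinned cells 21.0%, 2.39%, 0.841% and 0.144% of stromal cells held Crabp1, against 3.07%, 0.243%, 0% and 0% of endothelial cells. The unthinned stromal shares were 45.7%, 4.90%, 2.12% and 0.239%, and the endothelial ones 13.2%, 1.04%, 0.107% and 0%, at the depths given above.

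Stroma held 74.0% of the Crabp1 UMIs of E15.5 and 7.69% of those of E17.5. At E17.5 the proximal tubule was highest, at 39.9 CPM, followed by early nephron cells at 25.4. Proximal tubule stood at 23.8, 39.9, 4.89 and 1.74 CPM in E15.5, E17.5, P0 and the transplant, 4.88-fold lower at P0 than at E15.5 (3.68 to 6.53) and 22.9-fold lower in the transplant than at E17.5 (15.4 to 35.3). In the collecting duct Crabp1 was 5.64, 0.671, 0.168 and 0.255 CPM, and the ratio of 33.5-fold lower at P0 rests on 1 UMI (5.47 to 1380). Podocytes held 5.63, 0.712, 1.04 and 0.235 CPM. Endothelium, a class taken to lack the gene, held 5.48, 1.10, 0.0976 and 0 CPM, and the intervals of both classes overlapped those of endothelium in each library; at P0 podocytes had 4 UMIs (0.283 to 2.66 CPM) and endothelium 1 (0.00247 to 0.544 CPM).

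Crabp2, which delivers retinoic acid to its receptors, was shared by stroma, nephron progenitors and collecting duct at E15.5 and then stayed high in the collecting duct. Its stromal levels were 74.0 CPM (E15.5), 28.6 (E17.5), 7.18 (P0) and 2.95 (transplant), a descending order with separate intervals for E15.5, E17.5 and P0. The P0 stroma was 10.3-fold below E15.5 (7.72 to 14.1), and the transplant was 2.43-fold below P0 (1.34 to 4.68) and 9.69-fold below E17.5 (5.61 to 17.9). Nephron progenitors went from 99.6 CPM at E15.5 to 22.4 at P0, 4.44-fold lower (3.86 to 5.12). In the collecting duct it was 85.0, 92.9, 84.7 and 28.9 CPM. There P0 stood at 0.997 times E15.5 (0.869 to 1.14), and the transplant was 2.94-fold below P0 (2.39 to 3.63) and 3.22-fold below E17.5 (2.58 to 4.05). In podocytes Crabp2 was 8.92, 1.42, 1.56 and 0 CPM, 5.73-fold lower at P0 than at E15.5 (2.2 to 17.5), but endothelium of the same libraries held 8.08, 1.10, 1.76 and 0.32 CPM.

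Rbp4, the retinol carrier secreted into blood, moved against the Crabp genes between E15.5 and P0. Stroma of E15.5 held 2.98 CPM, of E17.5 16.7, of P0 22.9 and of the transplant 5.70. E17.5 and P0 were high, and E15.5 and the transplant low. P0 was 7.67-fold above E15.5 (5.74 to 10.3), and the transplant was 4.01-fold below P0 (2.68 to 6.20) and 2.92-fold below E17.5 (1.84 to 4.72). In thinned cells 1.2%, 2.9%, 4.57% and 1.30% of stromal cells held Rbp4, against at most 0.239% of endothelial cells, and unthinned 4.06%, 3.98%, 5.68% and 2.15%, against at most 0.214%. In podocytes it was 0 CPM but for 1 UMI at P0, and in the collecting duct it was 0 to 1.68 CPM.

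Rarb, the receptor, stood at 60.7, 79.9, 50.8 and 47.6 CPM in stroma of E15.5, E17.5, P0 and the transplant, with E17.5 the highest. P0 was at 0.838 times E15.5 (0.741 to 0.944), the transplant at 0.936 times P0 (0.79 to 1.11) and at 0.596 times E17.5 (0.5 to 0.709). In the same stromal cells Aldh1a2, Crabp1 and Crabp2 were each more than 2-fold lower at P0 and lower again in the transplant. Thinned shares of stromal cells with Rarb were 16.5%, 18.8%, 13.0% and 13.0%, against 1.36%, 0.715%, 1.37% and 0.294% in proximal tubule, the class with little of the gene; unthinned they were 62.7%, 32.0%, 27.5% and 23.9%, against 15.7%, 3.21%, 5.09% and 1.98%, at median depths in proximal tubule of 25638, 9473, 14456 and 11110 UMIs.

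The Rarb ratios of the transplant to P0 and to E17.5 were lower in podocytes and endothelium than in stroma. Podocytes held 47.4, 50.6, 42.0 and 18.6 CPM. The 3 kidneys in situ were close together, with P0 at 0.887 times E15.5 (0.687 to 1.15), and the transplant was 2.26-fold below P0 (1.72 to 3.00) and 2.72-fold below E17.5 (1.95 to 3.80). Endothelium held 36.4, 66.7, 37.4 and 14.6 CPM, 2.57-fold lower in the transplant than at P0 (2.04 to 3.26) and 4.58-fold lower than at E17.5 (3.63 to 5.82). Whether these ratios differ from that of stroma was not tested. Stroma was the highest class in each library, 1.28-fold above podocytes at E15.5 (1.05 to 1.58), 1.2-fold above endothelium at E17.5 (1.02 to 1.40), not separated from podocytes at P0 (1.21-fold, 0.999 to 1.47), and 2.56-fold above podocytes in the transplant (1.98 to 3.35). In the collecting duct Rarb was 14.6, 16.8, 6.05 and 4.09 CPM, 2.41-fold lower at P0 than at E15.5 (1.57 to 3.74) and 4.11-fold lower in the transplant than at E17.5 (2.30 to 7.73).

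How reads in the stretch shared with Top2b were assigned is not given in the sources used here. Top2b stood at 154, 228, 118 and 121 CPM in stroma and at 161, 179, 114 and 110 in podocytes. In stroma both Top2b and Rarb were highest at E17.5 and lower at P0 and in the transplant, and the part of shared reads in this was not tested. It was of like height in nephron progenitors, at 141, 209 and 98.0 CPM, where Rarb was 12.9, 18.1 and 11.3 CPM. In podocytes Top2b was 114 and 110 CPM at P0 and in the transplant, where Rarb was 42.0 and 18.6.

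Stroma is layered in the developing kidney, and the shares of stromal cells with layer markers differed between the libraries. Cells with markers of the nephrogenic zone (Foxd1, Ntn1, Fibin), the outermost layer, were 23.6%, 11.9%, 8.80% and 1.43% of stroma in E15.5, E17.5, P0 and the transplant. Cells with medullary markers (Penk, Wnt5a, Lef1) were 34.2%, 22.7%, 22.7% and 23.2%, and those with fibroblast markers (Dpt, Pi16, Cd34, Col14a1, Clec3b) 1.61%, 3.98%, 3.34% and 9.55%. A cell needed 2 detected markers of a list. Median stromal depths were 18408, 5241, 6987.5 and 5973 UMIs in the same order, and these shares are not matched for depth. At E15.5 Aldh1a2 was 471 CPM in the nephrogenic zone and 78.6 in the medulla, a ratio of 5.99 (5.50 to 6.54). At E17.5 the levels were 258 and 43.7 (5.90-fold, 4.10 to 8.67), and at P0 182 and 29.4 (6.18-fold, 4.40 to 8.82), so the ratio between the layers lay between 5.90 and 6.18 at the 3 ages. Crabp1 at E15.5 was 199 against 31.6 CPM (6.28-fold, 5.49 to 7.21). At E17.5 it was 10.7-fold higher in the nephrogenic zone, on 2 medullary UMIs (2.34 to 99.7), and at P0 the layers had 3 and 2 UMIs. Crabp2 was 4.44-fold (3.87 to 5.10), 11.1-fold (5.39 to 25.6) and, on 3 medullary UMIs, 9.50-fold (2.56 to 52.5) higher in the nephrogenic zone at E15.5, E17.5 and P0; with cells grouped after thinning, the P0 layers were not separated.

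Rarb leaned the other way. In the medulla it was 77.5, 118 and 78.3 CPM in order of age, against 55.2, 98.1 and 45.0 in the nephrogenic zone. The medulla was 1.40-fold (1.22 to 1.61) and 1.74-fold (1.17 to 2.66) higher at E15.5 and P0, and not separated at E17.5 (1.2-fold, 0.844 to 1.74), nor at P0 when cells were grouped after thinning (1.25-fold, 0.654 to 2.65). Rbp4 had its highest level in the fibroblast group, with 211 (E17.5), 63.1 (P0) and 39.8 CPM (transplant), from 26, 30 and 80 cells, and was at 0 UMIs in the nephrogenic zone of these 3 libraries. Most of its stromal UMIs at P0 lay elsewhere, with 118 in unassigned stroma, 18 in the medulla and 14 in fibroblasts.

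**Figure D5:**
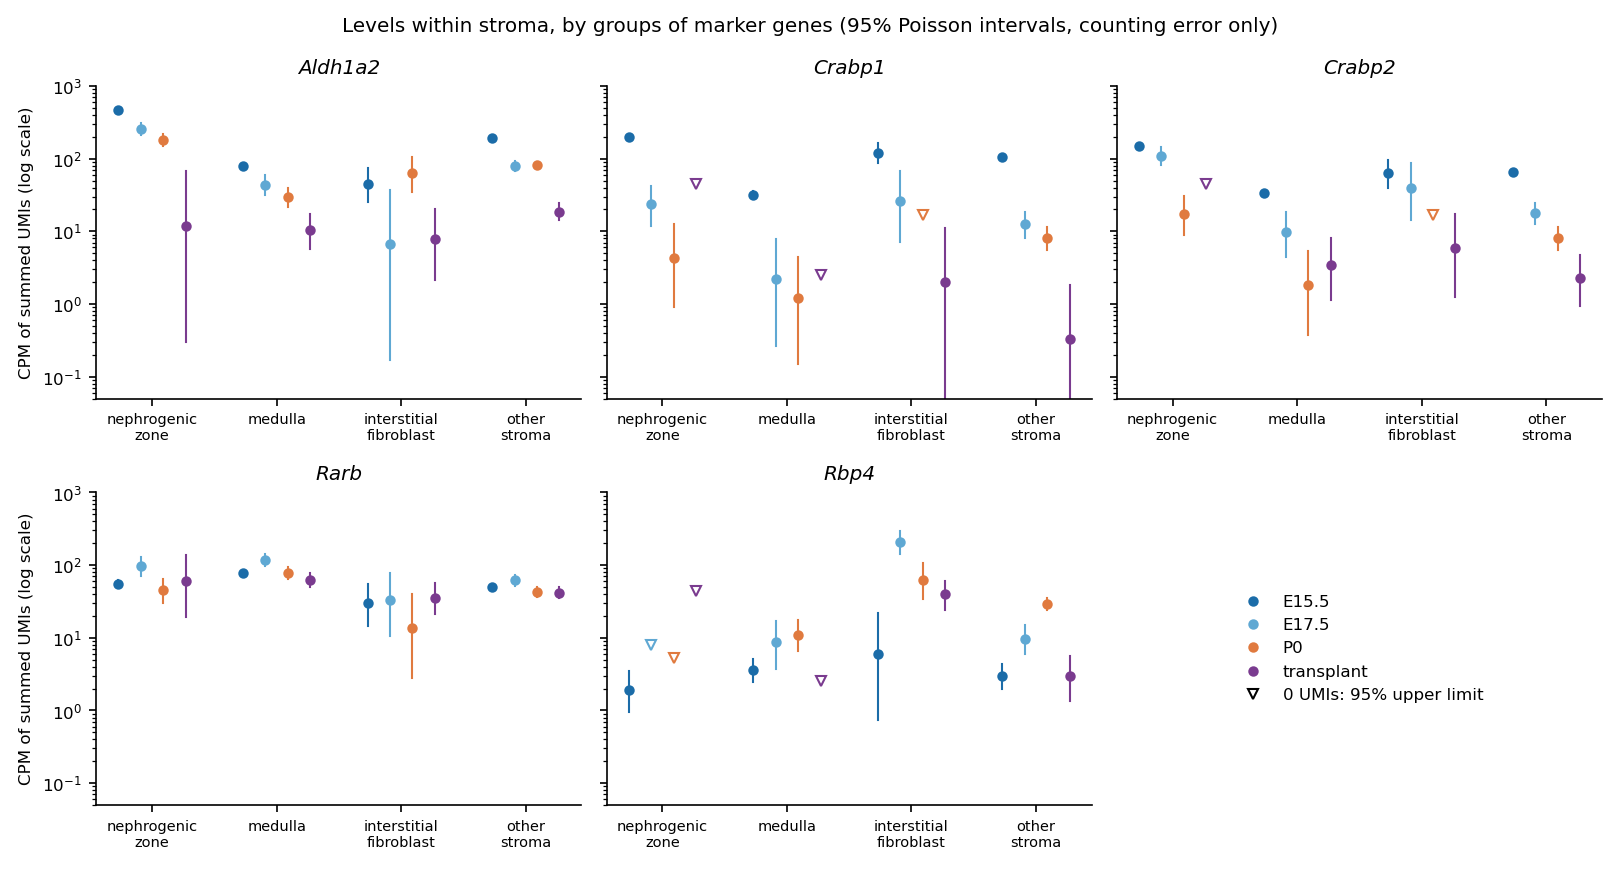
Levels of 5 genes (CPM of summed UMIs, log scale) in stromal cells grouped by layer markers, 1 point per library with its 95% Poisson interval; an open triangle is the upper limit for 0 UMIs. Aldh1a2, Crabp1 and Crabp2 are higher in the nephrogenic zone than in the medulla at E15.5, Rarb is not, and Rbp4 is highest in the fibroblast group at E17.5, P0 and in the transplant.

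Within the groups of the same name the ages also differed. The groups are not matched for depth, so they need not hold the same kinds of cells in each library. The part of layer make-up in the ratios of all stroma was not tested. From E15.5 to P0, Aldh1a2 was 2.59-fold lower in the nephrogenic zone (2.17 to 3.13), 2.68-fold in the medulla (2.0 to 3.67) and 2.41-fold in the stroma of neither marker list (2.14 to 2.72), beside the 2.80-fold of all stroma. Crabp2 was 8.52-fold lower in the nephrogenic zone (4.85 to 16.6) and 8.13-fold in the unassigned stroma (5.70 to 12.0), and Crabp1 was 13.4-fold lower in the latter (9.40 to 19.6). On 3 UMIs at P0, Crabp2 was 18.2-fold lower in the medulla (6.17 to 88.9). Crabp1 was 45.6-fold lower in the nephrogenic zone (15.6 to 222; 3 UMIs at P0) and 25.9-fold in the medulla (7.09 to 215; 2 UMIs). Rarb stood at 0.815, 1.01 and 0.857 times E15.5 in the nephrogenic zone, the medulla and the unassigned stroma. Rbp4 was 9.93-fold higher at P0 in the unassigned stroma (6.49 to 15.7) and 3.06-fold higher in the medulla (1.61 to 5.68). In the transplant the nephrogenic zone had 12 cells and could not be compared. Its medulla held 2.84-fold less Aldh1a2 than that of P0 (1.56 to 5.46) and its unassigned stroma 4.33-fold less (3.26 to 5.84), beside 5.15-fold in all stroma. Against E17.5 the 2 groups held 4.23-fold (2.28 to 8.23) and 4.27-fold (3.14 to 5.87) less. Rbp4 in fibroblasts was at 0.63 times P0 in the transplant (0.303 to 1.35), while in the unassigned stroma it was 9.98-fold lower (5.08 to 22.4). Against E17.5, Rbp4 was lower in both, by 5.3-fold in fibroblasts (2.94 to 9.78) and by 3.28-fold in the unassigned stroma (1.43 to 8.17).

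In single stromal cells of E15.5, thinned to 3000 UMIs, the genes of the nephrogenic zone occurred together. Aldh1a2 was found in 61.9% of the 244 cells with Crabp1 (exact Clopper-Pearson 95% interval 55.5 to 68.0) and in 25.9% of the 918 without (23.1 to 28.9). Crabp2 was found in 33.2% and 13.7% of the same cells. Rarb was found in 17.2% of the cells with Aldh1a2 and in 16.2% of those without.

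Markers of other cells and stress genes also differed between these libraries. Mural markers, of the muscle cells around vessels, summed to 803, 2380, 2180 and 3610 CPM in stroma. A list of 6 immediate-early and heat shock genes known to be induced by tissue dissociation, chosen after the data were seen, summed to 2060, 6130, 6590 and 7530 CPM there, lowest in the library where Aldh1a2, Crabp1 and Crabp2 were highest, and to 1180, 5790, 8440 and 3690 CPM in podocytes. Their part in the ratios was not tested. Stromal markers summed to 698, 805, 665 and 993 CPM in podocytes. Fat cell markers from the graft site were nearly absent from stroma (at most 0.393 CPM for the list of 4, with Adipoq and Cidec at 0), as were those of the epididymis (at most 0.197 CPM). Both lists were also classes of the gate, and neither is a list of stromal markers. These sums therefore cannot tell whether stromal cells of the host are among those of the transplant.

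The distal tubule, whose cells were few, gave little to read. Aldh1a3 was 38.5, 27.6 and 36.1 CPM at E15.5, E17.5 and P0, on 21, 10 and 12 UMIs, with P0 at 0.939 times E15.5 (0.421 to 2.0), and 0.884 CPM in the transplant, on 1 UMI. The other 6 genes had too few UMIs for a ratio. Rarb was 11, 24.8, 9.03 and 2.65 CPM and Aldh1a2 23.8, 5.51, 15.1 and 4.42 CPM. Of the distal cells, 12 of 23, 21 of 45, 21 of 42 and 84 of 157 lay within 0.125 of the next class in their share of markers, so that a distal value can hold cells of a neighbouring class.

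The rest of the pathway was read from a list of 34 genes of retinol uptake, interconversion, degradation, receptors and response. In stroma 25 had enough UMIs for P0 against E15.5, of which 1 was 2-fold higher and 1 lower (all stromal genes: 8.08% and 8.19%), with a median log2 ratio of 0.04. The higher one was Ecm1, a commonly used response gene, at 117 and 316 CPM in E15.5 and P0 (2.70-fold, 2.55 to 2.86). The lower one was Stra6, the receptor that takes up retinol from Rbp4, at 21.3 and 7.79 CPM (2.74-fold, 2.05 to 3.73). Rdh10, which makes the retinal that Aldh1a2 uses, stood at 33.3, 30.5, 34.4 and 38.6 CPM in stroma; it was chosen after its values were seen.

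The collecting duct had 22 of the 34 with enough UMIs and 6 lower at P0, none higher, with a median log2 ratio of -0.37 beside -0.30 for all genes of the class, of which 16.3% were lower. The lowest were Cyp26b1, which degrades retinoic acid, at 8.22 and 0.841 CPM (9.78-fold, 3.81 to 32.0), and Stra6 at 6.11 and 1.01 CPM (6.05-fold, 2.44 to 18.0). In podocytes, of 20 genes, Rdh5 was 3.87-fold higher at P0 (1.35 to 15.2), where 8.03% of all genes were higher. In the distal tubule 8 had enough UMIs and Fabp5, which carries retinoic acid to another receptor, was the 1 that was lower (3.96-fold, 1.37 to 15.6), where 8.39% of all genes were.

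For the transplant against P0, 3 of 23 genes were higher and 1 was lower in stroma (all stromal genes: 14.5% and 6.47%), with a median log2 ratio of 0.26 beside 0.27 for all genes. Adh1, a retinol dehydrogenase, was 10.1 CPM at P0 and 42.3 in the transplant (4.20-fold, 3.17 to 5.62), and Tgm2, a commonly used response gene, 22.3 and 87.9 CPM (3.94-fold, 3.27 to 4.79). Both were higher in the stroma where Aldh1a2 was 5.15-fold below P0, and a link between these values was not tested. Fabp5 was 3.57-fold lower than at P0 (2.96 to 4.33). In podocytes 3 of 20 were higher (11.3% of all genes), led by Rarres1 at 33.7 and 148 CPM (4.38-fold, 3.62 to 5.34) and Ecm1 (4.04-fold, 2.07 to 8.61). In the collecting duct 2 of 20 were higher (24.4% of all genes), the receptors Rarg and Rxra, each 2.21-fold, and Fabp5 was 2.83-fold lower (1.79 to 4.68). In the distal tubule 2 of 11 were higher (12.7% of all genes), Rdh10 on 2 UMIs at P0 (4.85-fold, 1.24 to 41.7) and Dhrs3, which returns retinal to retinol, on 3 UMIs (4.11-fold, 1.31 to 20.7). Against E17.5 the counts were 3 higher and 1 lower of 23 in stroma, 0 and 2 of 17 in the collecting duct, 3 and 0 of 20 in podocytes and 1 and 0 of 11 in the distal tubule, where 11.3% and 7.51%, 13.2% and 6.69%, 7.28% and 4.78%, and 6.53% and 4.19% of all genes were. Adh1 (4.35-fold, 3.04 to 6.41) and the receptor Rxrg, on 2 UMIs at E17.5 (10.3-fold, 2.6 to 88.9), were the highest in stroma, and Rarres1 was the lower one (3.09-fold, 1.66 to 5.97). Fabp5 was 2.17-fold lower in the collecting duct (1.26 to 3.82).

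The genes most like each of the 7 were sought over 42 sums of a class and a library, among 13201 genes, by the Pearson correlation of log2(CPM + 1). The sums share libraries and are not independent, so r is a description. Rarb was most like Rbfox2 (r = 0.839), Dlc1 (0.835) and Sfr1 (0.831), and Aldh1a2 most like Frzb (0.819), Gxylt2 (0.818) and Ncam1 (0.813). For Aldh1a3 the nearest were Wfdc13 (0.867), Elf5 (0.847), itself a marker that formed the collecting duct class, and Ros1 (0.845). Crabp1 was nearest to Notum (0.766), Acat2 (0.744) and Hunk (0.735), Crabp2 to Gpr45 (0.819), Gfra4 (0.804) and Dzip3 (0.791), Rbp4 to Lgi2 (0.796), Pcdh10 (0.718) and Vstm2b (0.699), and Aldh1a1 to Ppp1r14c (0.78), Panct2 (0.732) and Frmd5 (0.731). None of the 7 was among the 3 nearest of another.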

How the data were processed

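The deposited values were UMI counts per gene and barcode, from libraries of the 10x Genomics 3′ v2 chemistry per the labels' protocols. Reads were processed with Cell Ranger 3.1.0 and GRCm38 per the submitters' processing notes; per the file headers the matrices came from version 3.0.2 (E15.5, P0) and 3.1.0 (E17.5, transplant). The treatment of strand and of reads shared by genes is not given in the sources used here. A joined matrix of 3 libraries was not used here.

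Barcodes under 500 genes or above 20% mitochondrial UMIs were dropped, and the highest Scrublet scores (scanpy 1.11.5) were removed as likely doublets at 0.8% per 1000 cells, which took 102, 167, 524 and 350 cells. A cell took the class with the highest share of its markers detected, with at least 3 of them; 130 markers in 19 lists (129 measured) placed 90.4% to 95.3% of cells. Within stroma, 2 markers were needed. UMIs were summed per class and library and scaled to CPM. Poisson and conditional binomial intervals (scipy 1.17.1) cover counting error only; a 0 is bounded at 3 counts. Cells under 3000 UMIs were left out of thinned shares, which kept 3329, 4024, 6903 and 4546 cells. The ratio steps were tested on simulated data.

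The 7 genes and all lists were chosen with earlier results of these data known. Details of the class and stroma gates, the stress list, the Aqp2 split, the Top2b values and 1 of 12 alternatives were set after the data were seen. All 7 genes are named; of the 34 other pathway genes, those at 2-fold, at most 2 highest and 2 lowest per class and comparison, beside a level given as background (some results under this rule are not reported here); and the 3 genes most alike each of the 7. With 1 library per group no test between groups was made.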

Additional observations from a re-analysis of the deposited data

Results flagged for a closer look

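Ratios of the same gene that pointed in opposite directions in different classes of the same libraries are listed here; the difference between the classes was not tested. Aldh1a2 at P0 against E15.5 had a log2 ratio of 1.22 in nephron progenitors and -1.58 in endothelium, where it was low in both libraries (11.4 and 3.81 CPM). Aldh1a3 at P0 against E15.5 was at 1.53 in stroma and -2.40 in proximal tubule, on 14 UMIs at P0. Aldh1a3 in the transplant against P0 was at 1.53 in podocytes and -2.79 in the loop of Henle, on 5 UMIs in the transplant. Aldh1a2 in the transplant against E17.5 was at 1.34 in the collecting duct, on 9 UMIs at E17.5, and -2.58 in stroma.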

How the results depend on the processing

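No paired analysis was possible because each group is 1 library. Of 45 ratios of the 7 genes with enough UMIs, 28 reached 2-fold, and 16 of these did so under all 12 alternatives, among them stromal Aldh1a2, Crabp2 and Rbp4 in all 3 comparisons, stromal Crabp1 and Aldh1a3 for P0 against E15.5, and podocyte Rarb and collecting duct Crabp2 in both comparisons of the transplant. With classes from clusters in place of the marker gate, which left 10 transplant cells in the collecting duct, 2 log2 ratios of the transplant against P0 reversed: Aldh1a1 was 3.08 (-2.72 by the gate) and Aldh1a3 0.89 (-1.27). Under the same classes, ratios of the collecting duct that were not called also changed sign: Aldh1a3 against E17.5 moved from -0.51 to 2.1 and then passed 2-fold, and Aldh1a2 and Rarb against P0 moved from -0.51 to 1.13 and from -0.57 to 0.88. The number of values higher in the transplant than at E17.5 was 0 without doublet removal and 0 with a minimum of 50 UMIs (1 as reported), that higher in the transplant than at P0 was 0 with a minimum of 50 UMIs (1 as reported), and that higher at P0 than at E15.5 was 4 with no minimum (2 as reported). Counts of lower values stayed within 1.5 times those reported. Stromal groups gated on thinned cells gave nephrogenic zone to medulla ratios for Aldh1a2 of 6.69, 6.77 and 8.44, for Crabp1 of 4.28 at E15.5, and for Rarb of 0.597 at E15.5. At P0 they did not separate the layers for Rarb (0.797, 0.378 to 1.53). Nor did they for Crabp2 (2.9-fold with the 0 of the medulla set to 3 counts, and an interval from 0.816 upward). The distal tubule is limited by its 23 to 157 cells, and stromal Crabp1 in the transplant by its 2 UMIs.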
